A study of Mus musculus with 3 samples.

Results

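The genes described here are the RUNX transcription factor genes Runx1, Runx2 and Runx3, the gene of their shared partner Cbfb, and the 3 ETO family corepressor genes Cbfa2t2, Cbfa2t3 and Runx1t1. They were chosen by name, and values were taken from probe sets that name 1 gene. Of these 7 genes, 6 had such probe sets, 8 in all, among 19938 genes measured, and Runx2 is not analysed here. The arrays came from wild-type C57Bl/6 mice of 6 to 10 weeks, from bone marrow cells sorted as Lin-, c-Kit+, Sca-1+, CD150+, CD48- and CD41-, a phenotype called KLS SLAM that enriches for long-term haematopoietic stem cells. The data comprise 3 arrays of this 1 group, called arrays 1, 2 and 3 after their labels, so the comparisons possible are between replicate arrays, between genes and a background range, and between probe sets of 1 gene. Nothing in the labels ties an array to an animal or a pool, so the spread between these samples, on which p-values rest, may be technical. In the test of levels below, that spread is taken almost wholly from other genes.

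RUNX proteins bind DNA through the Runt domain, whose core motif is TGTGGT, and CBF beta, the product of Cbfb, joins that domain without touching DNA itself and strengthens its binding. RUNX1 is needed for stem cells to arise from haemogenic endothelium in the embryo and guides megakaryocyte and lymphoid development in the adult, RUNX2 is the master regulator of bone formation, and RUNX3 acts in T cells, NK cells and sensory neurons. ETO family proteins do not recognise DNA sequence. They are brought to it by other factors, among them E proteins and the SCL complex, and carry corepressors and histone deacetylases with them, and RUNX1T1 is best known as the fusion partner of RUNX1 in acute myeloid leukaemia.

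The RUNX genes share a feature at their start sites that the choice of members did not use. Promoters were read from RefSeq on GRCm38.p6 as 250 bases before to 50 bases after each start site, and 9 such promoters matched 6 of the 7 members, all but Runx1t1. The motif was searched on both strands as TGTGGT and TGCGGT. In the sequences shown it is read from the other strand as ACCACA or ACCGCA, except for a TGCGGT in Runx2 that is read directly. The upstream promoter of Runx1, the promoter of Runx2 and the upstream promoter of Runx3 each held a pair of TGTGGT motifs with 2 bases between them, in the same orientation. The stretch around the pair is shown for each of these 3 genes, since it is what the paralogues have in common, with RUNX motifs in capitals.
Runx1: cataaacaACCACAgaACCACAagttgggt
Runx2: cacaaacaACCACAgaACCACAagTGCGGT
Runx3: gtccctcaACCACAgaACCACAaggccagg
The Runx1 stretch lies at chr16:92826025-92826054 on the minus strand, 21 to 50 bases into the transcribed part. The Runx2 stretch lies at chr17:44814583-44814612 on the minus strand, 16 to 45 bases into the transcribed part, and ends in a further motif of the TGCGGT form. The Runx3 stretch lies at chr4:135120503-135120532 on the plus strand, upstream of the start site. Over 32851 promoters of the same length, 7 held the pair, or 0.0213%, and the other 4 belonged to Gm12236, Gm15462, Gm16225 and Olfr24. The pair was spelled out after the members' promoters had been read, so its rarity is a description. Either motif alone was common, at 22.4% of promoters.

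The downstream promoters of Runx1 and Runx3 and the promoters of Cbfb and Cbfa2t2 held neither motif in this window. The upstream promoter of Cbfa2t3 held 1 motif, of the TGCGGT form. The 250 bases before the start site are shown for Runx3, where the pair lies upstream, and for Cbfa2t3 and Cbfb, a corepressor gene and the partner gene, for comparison.
Runx3 upstream promoter: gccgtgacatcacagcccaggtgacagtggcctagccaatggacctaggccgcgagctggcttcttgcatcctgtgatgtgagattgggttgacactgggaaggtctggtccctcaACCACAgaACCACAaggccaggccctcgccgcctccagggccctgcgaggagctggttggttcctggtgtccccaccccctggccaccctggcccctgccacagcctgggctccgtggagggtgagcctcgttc
Cbfa2t3 upstream promoter: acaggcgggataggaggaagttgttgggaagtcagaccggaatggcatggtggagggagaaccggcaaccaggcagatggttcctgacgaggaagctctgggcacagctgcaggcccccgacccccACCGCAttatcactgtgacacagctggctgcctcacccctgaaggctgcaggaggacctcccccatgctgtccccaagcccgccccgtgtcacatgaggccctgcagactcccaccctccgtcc
Cbfb promoter: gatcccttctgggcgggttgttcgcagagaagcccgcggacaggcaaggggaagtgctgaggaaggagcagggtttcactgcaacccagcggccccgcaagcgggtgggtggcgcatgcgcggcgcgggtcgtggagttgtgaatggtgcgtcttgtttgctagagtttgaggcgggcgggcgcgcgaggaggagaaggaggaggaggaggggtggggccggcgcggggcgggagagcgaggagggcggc
They lie at chr4:135120395-135120644, chr8:122699110-122699359 on the minus strand and chr8:105170424-105170673. The ETS factor motif GGAAGT, searched on both strands and held by 23.8% of promoters, occurred at 2 places each in the full windows of Cbfb and of the upstream promoter of Cbfa2t3. A match of letters is not a binding event, and no binding was measured in these arrays.

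Without detection calls, levels were read against a background range set on each array by 1231 olfactory, vomeronasal and taste receptor genes, families that marrow cells should not express. The limit was the 95th percentile of these genes, which came to 6.29, 5.98 and 5.77 log2 for arrays 1, 2 and 3, and a gene counted as above the range when every array passed its own limit. By this rule 36.8% of all genes were above the range. Array 1 was the strictest, since 39.3%, 49.1% and 55.2% of genes passed the limits of arrays 1, 2 and 3. Without array 1, 9343 genes were above the range, against 7345 with all arrays. A gene that missed the limit on array 1 alone may thus reflect that array's higher limit. Probe sets differ in affinity, so a gene below the limit may still be transcribed, and levels of different genes are not ranked here. Of the gate genes, Kit was at 10.01 ± 0.23 log2 (SD, n = 3) and Slamf1, the gene of CD150, at 6.51 ± 0.13, both above the range. Itga2b, the gene of CD41, was at 6.37 ± 0.14 and also above it, although the gate excluded the protein. The margins of Slamf1 and Itga2b, 0.50 and 0.36 log2, did not pass the limma test given below (adjusted p = 0.0627 and 0.175). Both thus lay near the limit. Cd48, also excluded by the gate, was at 5.46 ± 0.77 and passed the limit on array 3 alone, and Ly6a is not analysed here. Of 7 measured stem cell genes, 7 were above the range, among them Procr at 7.39 ± 0.38 and Hlf at 10.49 ± 0.30.

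Of the RUNX genes measured, Runx1 stood well above the background range and Runx3 near its edge. Runx1, the family member needed for definitive haematopoiesis, gave linear intensities of 286 on array 1, 270.0 on array 2 and 200.3 on array 3, or 8.16, 8.08 and 7.65 log2. Arrays 1 and 2 lay close together and array 3 was the lowest, with a highest to lowest ratio of 1.43. The arrays exceeded their own limits by 1.87, 2.10 and 1.88 log2. Its mean was 7.96 ± 0.28 log2 (SD, n = 3).

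Runx3, the T cell and neuronal paralogue, gave intensities of 102 on array 1, 66.9 on array 2 and 121 on array 3, or 6.68, 6.06 and 6.92 log2. Its order differed from that of Runx1, with array 3 the highest and array 2 the lowest, at a ratio of 1.81. On array 2 it exceeded the limit by 0.09 log2 and on array 3 by 1.16, so its place above the range rests on a narrow margin on array 2. Its mean was 6.56 ± 0.44 log2. The markers of T and NK cells, in which Runx3 is at home, had 1 of 11 measured genes above the range, beside 36.8% of all genes. The mean over the list lay between 5.20 and 5.34 log2 on the 3 arrays. The marker above the range was Nkg7, a granule protein gene of cytotoxic cells, at 6.44, 5.99 and 7.40 log2, lowest on array 2 and highest on array 3 as Runx3 was. Over the list the order was another, with 7 of 11 markers highest on array 2 and 3 on array 3. Cd3e, a T cell receptor subunit gene, was at 6.44, 5.91 and 5.91, and Cd3d at 4.38, 4.60 and 4.33, below the limit on every array. The part of such cells in the Runx3 signal was not tested. In bulk samples fewer cells of a type and less RNA per cell cannot be told apart.

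Cbfb gave intensities of 637 on array 1, 386 on array 2 and 362 on array 3, or 9.32, 8.59 and 8.50 log2. Array 1 stood above the other arrays, at a highest to lowest ratio of 1.76, and all 3 lay between 2.62 and 3.02 log2 above their limits. Its mean was 8.80 ± 0.45 log2 (SD, n = 3). The partner gene was thus above the range, as were Runx1, Runx3 and 36.8% of all genes.

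The ETO family differed by gene, and in Cbfa2t2 by probe set. Cbfa2t3, which encodes ETO2, a corepressor of the SCL complex, had 2 probe sets. They gave intensities of 220.0, 192 and 130.3 and of 154, 173 and 98.4 on arrays 1, 2 and 3. In both, array 3 was the lowest, and both were above the limit on every array. Their mean was 7.53, 7.51 and 6.82 log2, or 7.29 ± 0.40 (SD, n = 3), with a highest to lowest ratio of 1.63.

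Cbfa2t2, which encodes MTGR1, a family member known from the intestinal epithelium and germ cells, had 2 probe sets that disagreed. The brighter gave 156, 104 and 145 on arrays 1, 2 and 3 and was above the limit on every array, by between 0.72 and 1.41 log2. The dimmer gave 53.9, 54.9 and 52.6 and was below it on every array. Averaged, the gene was at 6.52, 6.24 and 6.45 log2, which is above the limit by 0.22 on array 1, 0.26 on array 2 and 0.68 on array 3. Whether Cbfa2t2 counts as above the range therefore depends on which of its probe sets is used.

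Runx1t1, which encodes ETO itself, was the measured member below the range. It gave intensities of 55.4, 54.2 and 44.6, or 5.79, 5.76 and 5.48 log2, under the limit on each of the 3 arrays. Array 3 was again the lowest, at a ratio of 1.24.

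**Figure D1:**
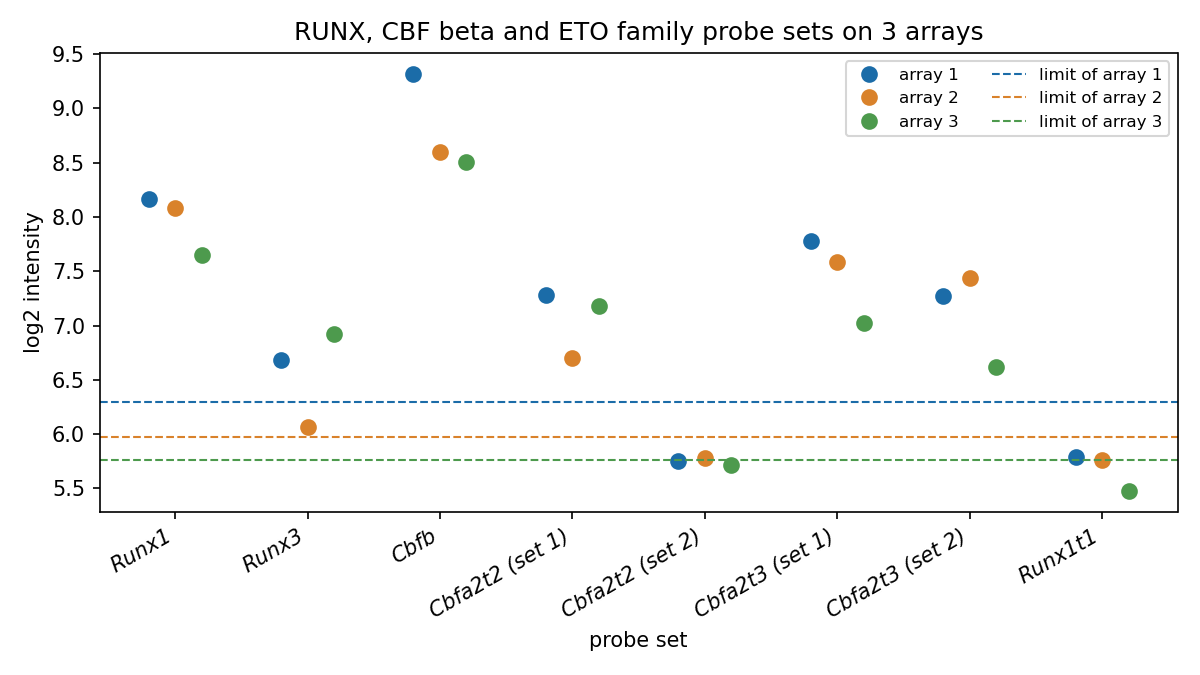
Log2 intensity (vertical axis) of the 8 probe sets of the 6 measured genes (horizontal axis), with 1 point for each array and a dashed line at that array's background limit. Cbfb, Runx1 and both Cbfa2t3 probe sets lie above all limits, Runx3 on array 2 lies just above its own, and Runx1t1 and the dimmer Cbfa2t2 probe set lie below theirs.

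In all, 5 of the 6 measured members were above the range on all 3 arrays, beside 36.8% of all genes. With the 99th percentile of the receptor genes as the limit, the members above it were 3, namely Runx1, Cbfb and Cbfa2t3. At that limit 3474 of 19938 genes were above the range. An exact sign test on 3 arrays cannot go below a one-sided p of 0.125, so the margin over the limit was also tested with limma, one-sided for above, which called 32.0% of all genes. In that fit the error came almost wholly from genes of like level and hardly from the gene itself, and shifts shared by all genes of an array enter it. The margin was 2.79 ± 0.36 log2 (SE) for Cbfb (adjusted p = 1.28e-13, limma) and 1.95 ± 0.34 for Runx1 (adjusted p = 6.61e-08, limma), and higher than 0 on 3 of 3 arrays for both. For Cbfa2t3 it was 1.27 ± 0.31 (adjusted p = 9.13e-05, limma), a call lost without array 2 (adjusted p = 0.0591) and at the 99th percentile limit, with a margin of 0.55 (adjusted p = 0.380). For Runx3 it was 0.54 ± 0.25 (adjusted p = 0.0448, limma), a call lost without any 1 of the arrays, with adjusted p of 0.118, 0.166 and 0.554 without arrays 1, 2 and 3. That call of limma was also lost with olfactory receptor genes alone as the background (adjusted p = 0.0682) and without the variance trend and robust fitting (adjusted p = 0.0544). Cbfa2t2 did not pass at 0.39 ± 0.24 (adjusted p = 0.143, limma), but did with its brighter probe set, at 1.03 (adjusted p = 0.000661, limma). Runx1t1 had a margin of -0.34 with a 95% interval from -0.76 to 0.09, so a level at the limit is within its error.

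Between arrays the members differed by ratios of 1.21 to 1.81, and none of the 6 passed the test against the spread usual at their level. Each gene's variance was compared by limma with the trend of variance on level, and 0 of 6 members and 0 of 19938 genes passed an adjusted p of 0.05, so 0% were called. At an unadjusted p under 0.05 the counts were 0 members and 1017 genes, or 5.10%. Runx3 had the largest SD for its level among the members, 1.73 times the trend (adjusted p = 0.983, limma variance test). Cbfb and Cbfa2t3 were at 1.26 and 1.24 times the trend. Runx1, Runx1t1 and Cbfa2t2 were below it, at 0.78, 0.81 and 0.60 times. The test had little power here. Vpreb1, a B cell marker with an SD 5.59 times the trend, was not called either (adjusted p = 0.831, limma variance test). A call was thus out of reach for members at the ratios seen. With 3 arrays a difference of the sizes seen was not told apart from the usual spread, which does not show that the arrays were alike.

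**Figure D2:**
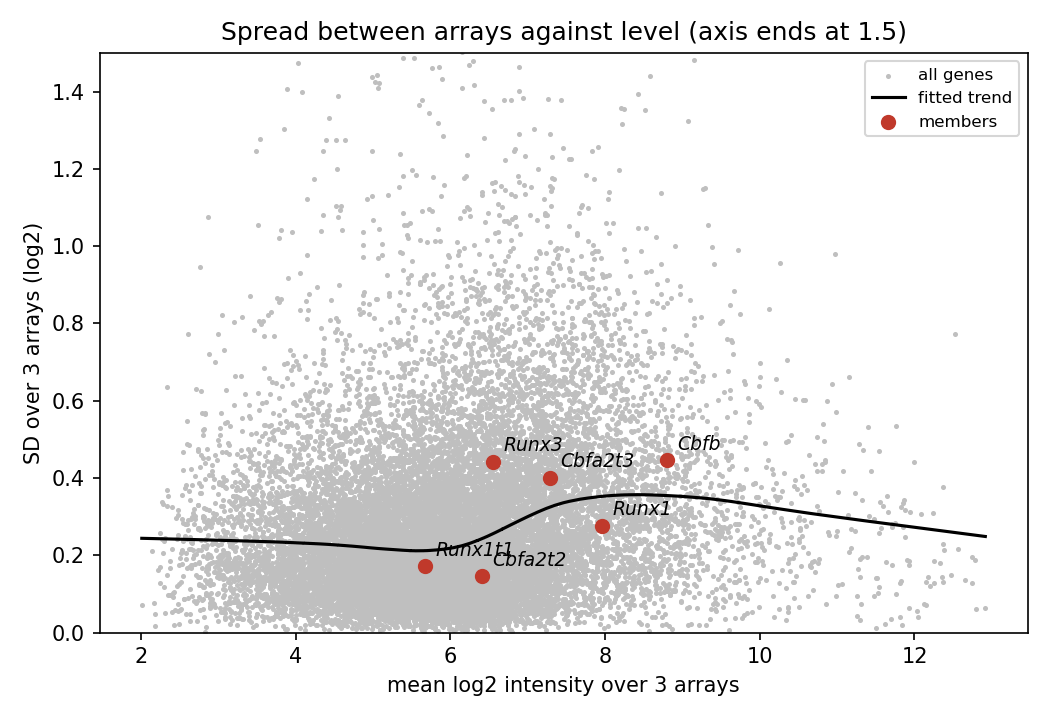
SD over the 3 arrays (vertical axis, log2) against mean log2 intensity (horizontal axis) for all 19938 genes in grey, with the fitted trend as a line and the 6 members as labelled points. The axis ends at 1.5, past which 42 genes lie. Runx3, Cbfa2t3 and Cbfb sit above the line and Runx1, Runx1t1 and Cbfa2t2 below it.

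Of the 6 members, 5 were highest on array 1 and 4 were lowest on array 3. Over all genes, 31.6% were highest on array 1 and 37.1% lowest on array 3. The count of 5 rests in part on near ties. On arrays 1 and 2, Runx1 was at 8.16 and 8.08 log2, Cbfa2t3 at 7.53 and 7.51 and Runx1t1 at 5.79 and 5.76. Cbfa2t2 was at 6.52 on array 1 and 6.45 on array 3. The dimmer Cbfa2t3 probe set was highest on array 2, at 7.43 against 7.27 on array 1. For Runx1 the difference of array 3 from array 1 was -0.51 log2, where the median over the 500 genes nearest in level was 0.29. For Cbfb it was -0.82 against a median of 0.39, and for Cbfa2t3 it was -0.70 against 0.12. In these 3 genes the sign was thus opposite to that of genes of their own brightness. For Runx1t1 the difference was -0.31 against -0.05, for Cbfa2t2 -0.07 against -0.03 and for Runx3 0.25 against 0.02. After the median of like genes was taken away on each array, Cbfb stood at 0.70, -0.22 and -0.46 on arrays 1, 2 and 3. The variance test of limma still called 0 members, as it called 0 of all genes, so it could not decide on this order. This order was noted after the values were seen.

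**Figure D3:**
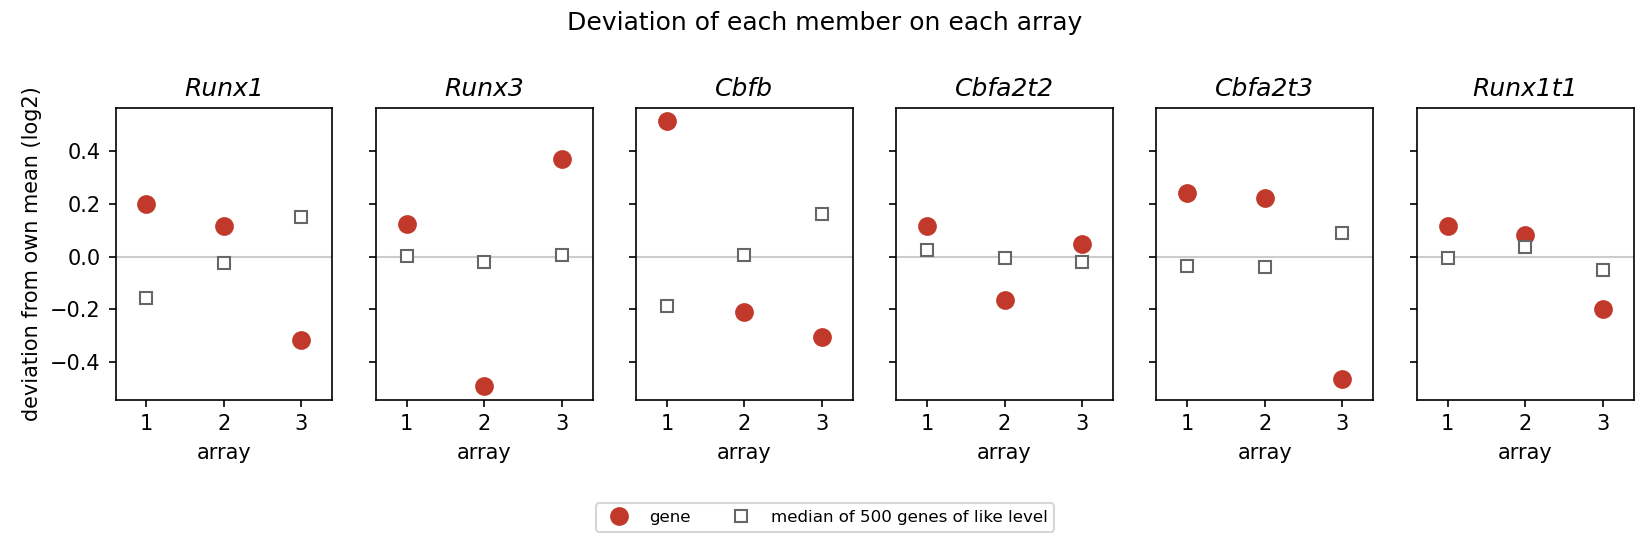
Deviation of each measured member from its own mean (filled points, log2, vertical axis) on arrays 1, 2 and 3 (horizontal axis), beside the median deviation of the 500 genes nearest in level (open squares). In Runx1, Cbfb and Cbfa2t3 the points for arrays 1 and 3 lie on the opposite side of 0 from the squares, and Runx3 is lowest on array 2.

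Granulocyte markers had another order. Of 17 such genes 12 were above the range, and the list averaged 7.68, 8.25 and 8.31 log2 on arrays 1, 2 and 3. S100a8, a calprotectin subunit gene, was at 11.73, 12.31 and 12.20, and its partner S100a9 at 11.94, 12.57 and 12.61. The list did not move as one. Of the 17 genes, 7 were highest on array 2, 8 on array 3 and 2 on array 1. Those 2 were Mpo, at 8.29, 7.53 and 7.88, and Cebpe, at 6.42, 6.36 and 6.28. Array 1, where Cbfb and, by small differences from array 2, Runx1 and Cbfa2t3 were highest, was thus the array with the lowest granulocyte list mean. It also had the lowest mean of the stem cell list, at 8.42, 8.71 and 8.66 log2 on arrays 1, 2 and 3. Of the 7 measured stem cell genes, 1 was highest on array 1. The part of granulocytes or stem cells in the differences of the members was not tested. Above the range were 1 of 7 measured B cell markers and 1 of 7 erythroid markers, beside 36.8% of all genes. Osteoblast and stromal markers had 3 of 8 above the range, or 37.5%, near that share. Megakaryocyte and platelet markers had 6 of 7 above it, of which limma called 2, and a median margin of 0.41 log2, with Pf4 at 6.82, 7.15 and 7.71 log2 and Ppbp at 6.44, 5.60 and 6.61 on arrays 1, 2 and 3.

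Genes that work with the RUNX and ETO proteins were followed in 9 lists of 83 genes, of which 75 were measured and 47 were above the range, or 62.7% beside 36.8% of all genes. The share differed by list, from 0 of 8 genes tied to RUNX3 to 8 of 8 factors that act at shared sites with RUNX1, and nothing particular to RUNX is read from it. In the variance test of limma 0 of the 75 were called, as were 0 of all genes.

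**Figure D4:**
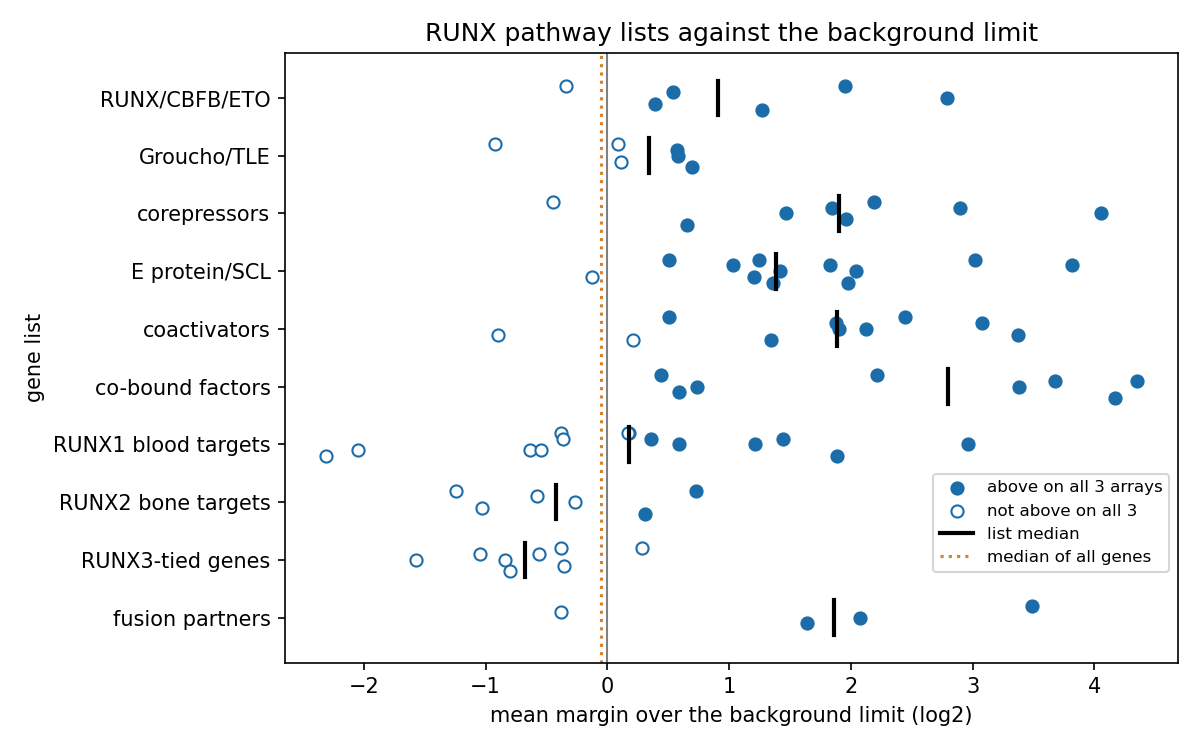
Mean margin over the background limit (horizontal axis, log2) of each measured gene, by list (vertical axis). Filled points were above the limit on all 3 arrays and open points were not, with the list median as a bar, 0 as the grey line and the median of all genes, -0.05, as the dotted line. The co-bound factors lie wholly to the right of 0 and 7 of the 8 genes tied to RUNX3 to its left.

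The full-length Groucho corepressors bind the C terminus of RUNX proteins and turn them into repressors. Of 6 measured family genes, 3 were above the range, or 50% beside 36.8% of all genes. They were Tle2 at 6.58 ± 0.14 log2, Tle3 at 6.60 ± 0.22 (SD, n = 3) and Tle5 at 6.71 ± 0.40. Tle5, formerly called Aes, is the short family member, so the count of 3 is not one of full-length members alone. Tle1 was at 5.09 ± 0.14 and below the limit on every array. Tle4 at 6.12 ± 0.32 missed it on array 2 and Tle6 at 6.10 ± 0.18 on array 1. The median margin of the list was 0.34 log2, beside -0.05 over all genes.

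The corepressors that ETO proteins carry were above the range in 7 of 8 measured genes, with a median margin of 1.90 log2. The histone deacetylase genes Hdac1 and Hdac2 were at 8.91 ± 0.29 and 10.06 ± 0.49 log2, and the scaffold gene Sin3a at 7.98 ± 0.20. The exception was Hdac3, the deacetylase of the NCoR complex, at 5.68, 5.14 and 5.89, which passed the limit on array 3 alone. The other NCoR complex genes measured, Tbl1x, Tbl1xr1 and Gps2, were at 8.20 ± 0.26, 7.86 ± 0.32 and 7.48 ± 0.24.

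The E proteins and SCL complex genes, through which ETO2 reaches DNA, were above the range in 11 of 12 cases, with a median margin of 1.39 log2. The E protein genes Tcf3, Tcf12 and Tcf4 were at 6.52 ± 0.18, 7.84 ± 0.44 and 8.06 ± 0.30 log2, and Tal1, which encodes SCL, was at 7.21 ± 0.07. The bridging genes Ldb1 and Lmo2 were at 9.03 ± 0.11 and 9.83 ± 0.05. Gata2, the stem cell GATA factor, was at 7.59, 7.34 and 7.36 on the 3 arrays. The exception was Gata1, the erythroid and megakaryocytic GATA factor, at 5.75, 6.00 and 5.91, which missed the limit on array 1 alone. The median SD of this list was 0.13 log2, beside 0.22 over all genes and 0.18 to 0.27 in the other pathway lists. Spread depends on level, and this value was picked with the values known, so nothing particular to the list is read from it.

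Coactivators and modifying enzymes of RUNX1 were above the range in 8 of 10 measured genes, with a median margin of 1.89 log2. The acetyltransferase genes Ep300, Crebbp and Kat6a were at 8.46 ± 0.07, 9.09 ± 0.07 and 8.14 ± 0.13 log2, and Kmt2a, which encodes the histone methyltransferase MLL, at 9.38 ± 0.26. The exceptions were the paired Hippo pathway coactivator genes Yap1, at 5.11 ± 0.25 and below the limit on every array, and Wwtr1, at 6.22 ± 0.35 and below it on array 1. Suv39h1 is not analysed here. Factors that act at shared sites with RUNX1 were above the range in 8 of 8 cases, with a median margin of 2.80. Ets1, a classical RUNX1 partner, was at 6.46 ± 0.18, the ETS factors Fli1 and Erg were at 9.69 ± 0.13 and 9.39 ± 0.07, and Spi1, the gene of PU.1, was at 6.60 ± 0.28.

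Known RUNX1 target genes of the blood were above the range in 6 of 14 measured cases, or 42.9%, near the 36.8% over all genes. Their median margin was 0.18 log2. The list mixes genes that RUNX1 switches on with genes that it represses, so the share has no single reading. Gfi1 and Gfi1b are repressors that RUNX1 switches on as blood forms. Gfi1b was at 7.52, 7.36 and 7.49 on the 3 arrays and above the range, and Gfi1 was at 6.25, 6.20 and 6.12 and missed it on array 1. Csf1r, the macrophage growth factor receptor gene, was at 5.38 ± 0.12 and below the limit on every array, as were the cytokine genes Csf2 at 3.96 ± 0.07 and Il3 at 3.70 ± 0.25. Nfe2, a megakaryocytic and erythroid regulator gene, was at 8.98 ± 0.31 and Mpo, the myeloperoxidase gene, at 7.90 ± 0.38, both above the range. Myh10, a non-muscle myosin gene that RUNX1 represses in megakaryocytes, was at 5.47 ± 0.34 and below the limit on every array.

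Of 6 measured bone and cartilage targets of RUNX2, 2 were above the range, or 33.3%, near the 36.8% over all genes. They were the collagen genes Col10a1 at 6.32 ± 0.17 log2 and Col1a1 at 6.74 ± 0.18, and the list median margin was -0.42. Ibsp, Sp7 and Mmp13, of bone matrix, bone cell fate and matrix breakdown, were below the limit on every array at 4.77 ± 0.68, 5.44 ± 0.11 and 4.98 ± 0.09. Alpl, the bone alkaline phosphatase gene, was at 5.58, 5.71 and 5.94 and passed on array 3 alone. Bglap, Bglap2 and Spp1 are not analysed here. Of 8 genes tied to RUNX3, 0 were above the range on all arrays, with a median margin of -0.68. Cd8a, Zbtb7b, Itgae and Tbx21, genes of T cell fate and residence, were at 5.63 ± 0.08, 5.45 ± 0.30, 5.17 ± 0.14 and 5.65 ± 0.25, and Prf1, the perforin gene, at 5.98, 6.57 and 6.33, missed the limit on array 1 alone.

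Of 4 other genes fused to RUNX1, CBFB or CBFA2T3 in human leukaemias, 3 were above the range. Etv6, an ETS repressor gene, was at 9.33, 9.59 and 9.59 log2 on the 3 arrays, Mecom at 8.34, 7.94 and 7.99, and Glis2 at 7.84, 7.75 and 7.37. Myh11, the smooth muscle myosin gene that fuses to CBFB, was at 5.61, 5.66 and 5.62 and below the limit on every array. The fusion partners in which the intact mouse gene was not above the range were thus Runx1t1 and Myh11.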

How the data were processed

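RNA of the sorted cells was purified on columns, amplified and labelled with biotin, per the labels' protocols. The authors deposited linear intensities; the submitters' processing notes name RMA and Affymetrix Expression Console. Their versions, and which arrays shared a run, are not given. RMA forces arrays run together onto one distribution and so removes most array-wide differences. Log2 of these intensities was used, with no pseudocount. Of 35554 probe sets, 21789 named 1 gene through the platform annotation, 1621 named several and 12144 were not listed. Probe sets of 1 gene were averaged, which gave 19938 genes, 999 with more than 1 probe set. Tests used limma 3.58.1 in R 4.3.3 with Benjamini-Hochberg adjustment over all genes, and the variance test set 2 degrees of freedom against a prior of 4.34. Both were first tested on simulated data. The number of arrays limits the precision. Members, lists and tests were chosen with earlier results of these data known. All members are named, then the first 4 measured genes of each pathway list, the members on its rarer side where these were 5 or fewer, all gate genes and the first 2 of each described marker list, and any other gene was picked with its values known. The closing section gives the alternatives.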

Additional observations from a re-analysis of the deposited data

How the results depend on the processing

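The counts of genes, members and pathway genes above the range and of members called by limma, and each member's margin and SD, were recomputed without each array, after quantile normalisation between arrays, with the brightest probe set of a gene, and with other limits or variance fits. The 99th percentile limit gave 3474 genes and 3 members above the range and 2 members above the limit by limma, and turned the margins of Runx3 and Cbfa2t2 to -0.18 and -0.34 log2. Without 1 array each, limma called 2 to 3 members, against 4 with all arrays, and the lowest count came without array 2. Without trend and robust fitting, or with olfactory receptor genes alone, it called 3, and with the brightest probe set 5. Counts of single lists, the order of the arrays and the promoter matches had no alternatives. Pathway genes above the range numbered 33 to 53 over the 8 alternatives. The variance test called 0 members under each of its 8 alternatives. It also called 0 of all genes under each, so this sameness reflects its low power and says nothing on the members. No paired analysis was possible because there is 1 group. The cause of these changes was not tested, beyond the higher limit itself. Signals near the background limit, those of Runx3, Cbfa2t2 and Runx1t1, are the least secure.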
